A study of Mus musculus with 12 samples.

Results

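The potassium channel genes described here are all genes on the array whose name begins with Kcn, the prefix given to the pore-forming subunits of potassium channels and to most of the accessory subunits that bind them. There were 95 such genes, read by 143 probes, among the 34844 gene names and 55681 probes of the array. A gene counted as measured if the scanner software marked 1 or more of its probes as well above background on 3 or 4 arrays within any group. By that rule 49 of the 95 genes were measured, by 60 probes, among 18021 measured genes in all. The prefix also takes in Kcnq1ot1, a long RNA transcribed antisense within the Kcnq1 locus, and Kcnrg, which encodes a regulator of channel assembly and no pore.

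Potassium channels let potassium leave the cardiomyocyte and so end the action potential and hold the resting potential. Mouse ventricle repolarises mainly through a fast transient outward current carried by Kcnd2 and Kcnd3 with their accessory subunit Kcnip2, and through delayed rectifiers that include Kcna5. The resting potential rests on the strong inward rectifiers Kcnj2 and Kcnj12, and the two-pore channels such as Kcnk3 add a background leak.

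RNA came from the left ventricular free wall and apex, without the septum, of 12 mice aged 6 months, with 4 hearts and 4 one-colour arrays per group. Mutant mice carried floxed Nkx2-5 alleles from which the neomycin cassette had been removed (Floxed-Nkx2-5-Δneo) together with a tamoxifen-inducible Cre recombinase under control of the Cx40 gene (Cx40-creERT2), which is active in embryonic trabecular myocardium. The group labelled Nkx2-5Δtrab, called TrbE10 here, came from mothers given tamoxifen at E10.5 and E11.5, when trabeculae form, and the group labelled Nkx2-5Δcomp, called TrbE14, from mothers given it at E13.5 and E14.5, when trabeculae compact. Control hearts are labelled as not injected, whereas the methods describe controls as littermates with the floxed alleles and without Cre, so whether these controls met tamoxifen could not be settled. The deletion is limited to cells in which Cx40 was active at the time of injection, and the pups were delivered by caesarean section and raised by CD1 foster mothers.

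Nkx2-5, the targeted gene, had a log2 signal between 11.89 and 12.23 in control, between 11.21 and 11.67 in TrbE10 and between 11.12 and 11.63 in TrbE14 hearts, so every mutant heart lay below every control heart (limma log2 changes of -0.66, adjusted p = 0.0459, and -0.59, adjusted p = 0.106). The 10 cardiomyocyte markers were all measured and limma called 0 in either mutant (2 and 1 at an unadjusted p under 0.05), and their summed log2 signal spanned 20.20 to 20.28 in control, 20.28 to 20.33 in TrbE10 and 20.19 to 20.27 in TrbE14 hearts. Between 22888 and 26155 probes per array were well above background. The control and TrbE14 arrays shared 1 slide and the TrbE10 arrays had a slide to themselves, so a difference between TrbE10 hearts and either other group cannot be told apart from a difference between slides. In RNA from whole tissue, fewer cells of a type and less RNA per cell cannot be told apart either.

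Calls were made in limma over all probes that passed this filter, and a gene is named as called if the Benjamini-Hochberg adjusted p of any of its probes was under 0.05. In TrbE10 hearts 2 of the 49 measured potassium channel genes were called against control, Kcnd2 lower and Kcnt2 higher, or 4.08% against 2.15% of all measured genes. Kcnt2 passed the filter through the mutant groups and not control. For a gene kept in this way a difference was partly fixed by the filter, so this count supports nothing about the members. In TrbE14 hearts limma called 0 of the 49, against 0.76% of all genes, with 7 at an unadjusted p under 0.05 (14.3%, against 13.9% of all genes). Between the mutants directly limma called 0 of the 49 and 0% of all genes, with 3 at an unadjusted p under 0.05 (6.12%, against 5.96%). At an unadjusted p under 0.05 the shares in TrbE14 hearts and between the mutants were thus near those of all genes.

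The following 30-base stretches open the 60-base probes for the 2 called genes and for Kcnj14, whose signal lay at either of 2 levels, and show which transcript segment was read. Each is written 5′ to 3′ in lower case as the scanner files give it, and the whole probe lies at the mm9 position named after it.
Kcnd2, chr6:21679569-21679628: aaatatactgtgttggtggtgaatgacttt
Kcnt2, chr1:142506210-142506269: ttccaaacagtgaacccagtaggaaaaaca
Kcnj14, brighter probe, chr7:53072247-53072306: ggtgaattttgtttttgtttgaagtgccat
Kcnj14, dimmer probe, chr7:53073189-53073248: attgaacatatgaggtcccagggacaccag

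Among the genes of the transient outward current, Kcnd2, the alpha subunit of its fast component, fell in TrbE10 hearts. Its log2 signal was 9.81, 9.77, 9.97 and 9.65 in the control hearts, 9.10, 9.27, 9.22 and 9.39 in TrbE10 hearts and 9.49, 9.90, 9.56 and 9.69 in TrbE14 hearts. All 4 TrbE10 hearts lay below all control and all TrbE14 hearts, while control and TrbE14 hearts overlapped. The log2 change in TrbE10 hearts, here and in what follows with its standard error, was -0.56 ± 0.11 (limma adjusted p = 0.0318), a fold of 0.681, against -0.14 ± 0.11 (adjusted p = 0.578) in TrbE14 hearts. Taken directly, TrbE10 hearts differed from TrbE14 hearts by -0.41 ± 0.11, which did not pass over all genes (adjusted p = 0.523). The call was lost in 9 of the 21 alternative settings, among them without any 1 of the 4 control hearts or without TrbE10 replicate 1 or 3, but the log2 change stayed between -0.61 and -0.50 in all 21.

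The other 3 measured genes of this current were not called. Kcnip2, the accessory subunit that brings Kcnd channels to the membrane, had a log2 change of -0.35 ± 0.21 (adjusted p = 0.445) in TrbE10 hearts, in which replicates 1 and 2 (9.90 and 9.65) lay among the controls (9.57 to 9.90) and replicates 3 and 4 (9.02 and 9.13) below them. Kcnd3, which also carries the fast component, had a log2 change of -0.26 ± 0.13 (adjusted p = 0.360). Kcna4, which carries the slow component, lay between 9.31 and 9.43 in control, 9.04 and 9.49 in TrbE10 and 9.23 and 9.40 in TrbE14 hearts, and its change in each mutant was within its standard error. In TrbE14 hearts the changes of Kcnd3 and Kcnip2 were within their standard errors as well. Kcnd1, a further member of the Kcnd family outside this group, was lower in all 4 TrbE14 hearts (6.85 to 7.10) than in all control hearts (7.25 to 7.51), with a log2 change of -0.44 ± 0.18 (adjusted p = 0.331). In TrbE10 hearts Kcnd1 spread from 6.79 to 7.88, and its change was within its standard error.

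**Figure D1:**
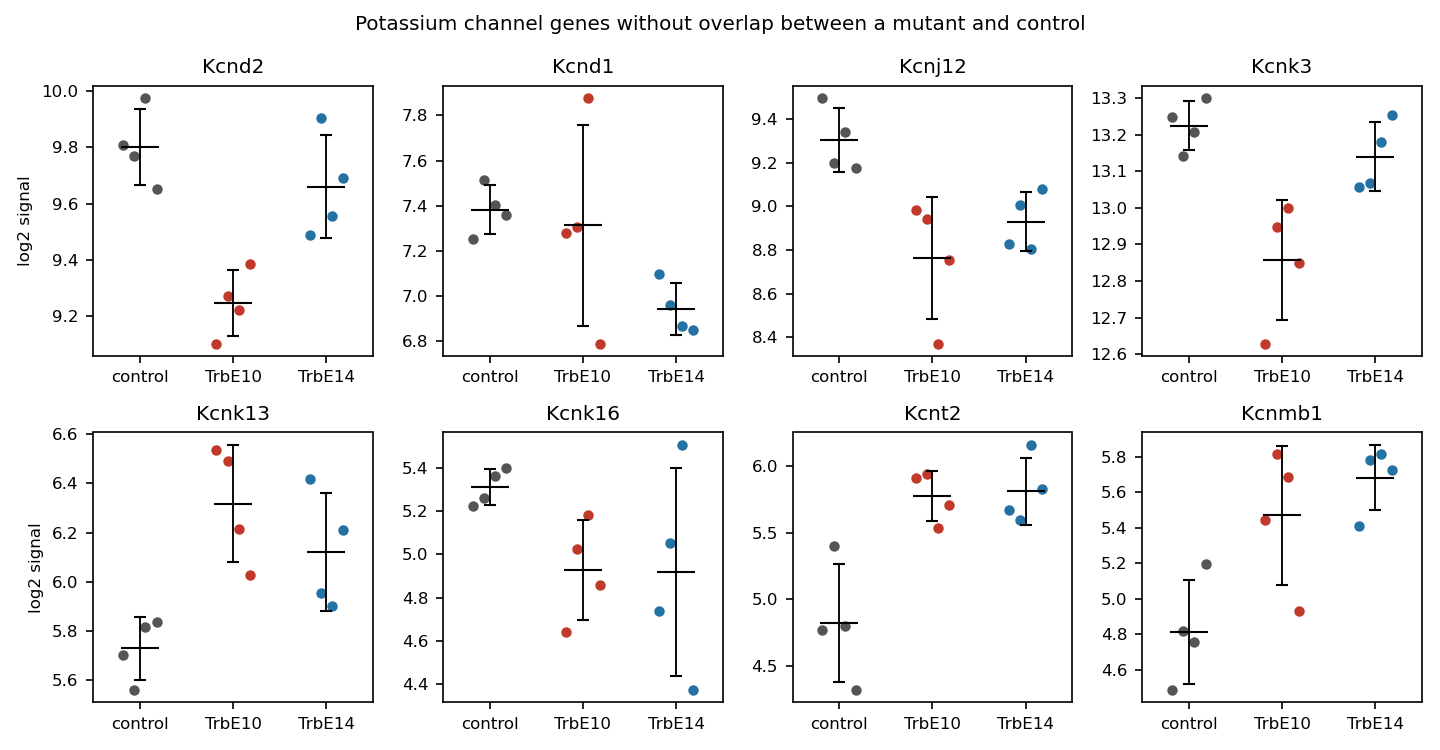
Log2 signal of 8 potassium channel genes whose 4 mutant hearts all lay on 1 side of the 4 control hearts in at least 1 mutant; each panel has its own vertical axis. Points are hearts (4 per group) and bars are the mean and standard deviation, and Kcnd2 in TrbE10 hearts (9.10 to 9.39) lies clear of both other groups. The filter kept Kcnk16 through control alone and Kcnt2 and Kcnmb1 through the mutants alone, so their separation was partly fixed by it.

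None of the 4 strong inward rectifiers, which set the resting potential, was called in either mutant. Kcnj12 had a log2 signal of 9.50, 9.20, 9.34 and 9.18 in control, 8.98, 8.94, 8.37 and 8.75 in TrbE10 and 8.83, 9.01, 8.81 and 9.08 in TrbE14 hearts. All 8 mutant hearts lay below all 4 control hearts. Its log2 change was -0.54 ± 0.14 (adjusted p = 0.0798) for TrbE10 and -0.37 ± 0.14 (adjusted p = 0.281) for TrbE14 hearts, and both comparisons use the same control hearts. Kcnj2, the other main subunit of this current in ventricle, had a dim signal of 5.27 to 6.04 in control, 5.56 to 6.18 in TrbE10 and 5.74 to 6.01 in TrbE14 hearts. The 95% interval of its log2 change was -0.30 to 0.46 in TrbE10 and -0.33 to 0.43 in TrbE14 hearts. A change in signal of the size found for Kcnd2 lay outside both. The Kcnj2 probe was well above background in only 3 of 4 control hearts, and at so dim a signal such a change in the transcript is not excluded. Kcnj4 ranged widely within every group, from 6.06 to 8.17 among control hearts alone, and its changes were within their standard errors.

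Kcnj14, a further strong inward rectifier, was at one of 2 levels in each heart. Its brighter probe read 4.71, 4.83, 3.18 and 3.90 in control hearts, 4.48, 9.36, 9.32 and 9.36 in TrbE10 hearts and 9.004, 4.57, 9.37 and 9.49 in TrbE14 hearts. No heart lay between 4.83 and 9.004, and 3 of 4 hearts in each mutant and 0 of 4 controls were at the higher level. The dimmer probe, which lies at another stretch of the gene, read 2.51, 3.50, 2.55 and 2.90 in control hearts, 4.10, 6.65, 6.37 and 6.22 in TrbE10 hearts and 6.06, 3.66, 6.71 and 6.56 in TrbE14 hearts. The same 6 hearts were high by both probes.

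By the brighter probe the mean log2 change was 3.97 ± 1.27 (adjusted p = 0.153) for TrbE10 and 3.95 ± 1.27 (adjusted p = 0.233) for TrbE14 hearts, so Kcnj14 was not called in either mutant. The dimmer probe was well above background in 0 of 4 control hearts. Against the lowest signal well above background on those arrays, the TrbE10 mean was at least 2.63-fold higher and the TrbE14 mean at least 2.47-fold higher. These bounds are for group means and do not hold for the low heart of each mutant. The limma test of the means as read gave adjusted p = 0.0590 and 0.107. Both probes were kept through the mutant hearts and not through control, so a higher mean there was partly fixed by the filter. Grwd1 and Cyth2, which flank Kcnj14 on chromosome 7 and were picked after its values had been seen, were level in all 12 hearts, between 9.20 and 9.63 and between 12.39 and 12.66. Y-linked signal was present in 1 control heart, 2 TrbE10 hearts and 3 TrbE14 hearts, and with it as a covariate the changes by the brighter probe were 3.76 (adjusted p = 0.183) and 3.53 (adjusted p = 0.336). Leaving out TrbE10 replicate 1 led to a call in TrbE10 hearts by the dimmer probe and leaving out TrbE14 replicate 2 to a call in both mutants.

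**Figure D2:**
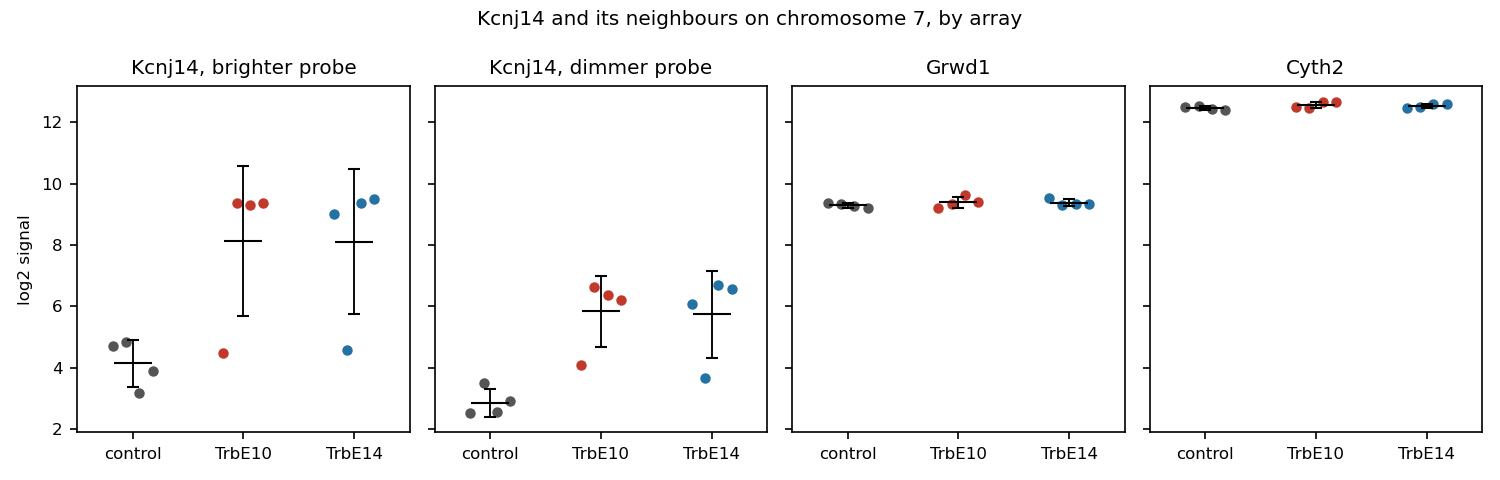
Log2 signal of both Kcnj14 probes and of the flanking genes Grwd1 and Cyth2 in each of the 12 hearts, on a shared axis; bars are the mean and standard deviation of the 4 hearts of a group. In each mutant 3 of 4 hearts are high for Kcnj14 by both probes, no control heart is, and the flanking genes are level.

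Among the channels opened by metabolic or nerve signals, Kcnj11, the pore of the ventricular ATP-sensitive channel, was not called. Its log2 signal was 10.24 to 10.53 in control, 9.42 to 10.53 in TrbE10 and 9.83 to 10.32 in TrbE14 hearts, with TrbE10 replicate 1 at the top of the control range. The log2 change was -0.49 ± 0.21 (adjusted p = 0.276) in TrbE10 and -0.36 ± 0.21 (adjusted p = 0.462) in TrbE14 hearts, and a further probe gave -0.70 and -0.42. Kcnj8, the pore of the vascular ATP-sensitive channel, and Kcnj3 and Kcnj5, which form the acetylcholine-activated channel of atrium and nodes, had changes within their standard errors in both mutants, although a dimmer Kcnj3 probe gave -0.24 ± 0.18 (adjusted p = 0.540) and -0.18 ± 0.18 (adjusted p = 0.665). Of the regulatory subunits of ATP-sensitive channels, Abcc8, which encodes SUR1, fell in TrbE10 hearts (log2 change -0.60, adjusted p = 0.0444) and was at -0.57 in TrbE14 hearts (adjusted p = 0.0883), with all 8 mutant hearts (12.08 to 12.54) below all control hearts (12.66 to 12.99). Abcc9, which encodes SUR2, had changes of 0.15 (adjusted p = 0.469) and 0.17 (adjusted p = 0.450).

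Kcnk3, a two-pore background channel also known as TASK-1, had a log2 signal of 13.25, 13.14, 13.21 and 13.30 in control, 12.63, 12.95, 13.001 and 12.85 in TrbE10 and 13.06, 13.07, 13.18 and 13.25 in TrbE14 hearts. All 4 TrbE10 hearts lay below all hearts of both other groups. The TrbE10 log2 change was -0.37 ± 0.09 (adjusted p = 0.0784), that in TrbE14 hearts was within its standard error, and TrbE10 less TrbE14 gave -0.28 (adjusted p = 0.701). Atrial tissue is rich in Kcnk3, Kcna5, Kcnj3 and Kcnj5, and the atrial myosin light chain Myl7 varied within every group, from 8.68 to 12.14 in control, 8.10 to 11.18 in TrbE10 and 9.03 to 11.53 in TrbE14 hearts. Of the 5 atrial markers, all measured, 3 were higher and 2 lower in TrbE10 hearts, and 4 higher and 1 lower in TrbE14 hearts. Sln and Bmp10 were called higher in TrbE10 and Bmp10 in TrbE14 hearts. The paper lists both genes among those deregulated in these mutant hearts. The part of atrial tissue in the potassium channel values was not tested.

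Kcnk13, a two-pore channel of the THIK family, was higher in both mutants without being called. Its log2 signal was 5.70, 5.56, 5.82 and 5.84 in control, 6.53, 6.49, 6.21 and 6.03 in TrbE10 and 6.42, 5.95, 5.90 and 6.21 in TrbE14 hearts. All 8 mutant hearts lay above all control hearts, with log2 changes of 0.59 ± 0.14 (adjusted p = 0.0700) and 0.39 ± 0.14 (adjusted p = 0.279). Kcnk16, which belongs to the TALK family, was lower in all TrbE10 hearts (4.64 to 5.18) than in all control hearts (5.23 to 5.40), with a log2 change of -0.38 ± 0.21 (adjusted p = 0.385), and was well above background in 4 of 4 control hearts and in 2 of 4 hearts of each mutant. Kcnk1 had changes of -0.85 ± 0.53 and -0.58 ± 0.53, neither called (adjusted p = 0.461 and 0.640). Kcnk16 and Kcnk1 were kept through control and through neither mutant, so a lower signal in mutant hearts was partly fixed by the filter. Kcnk6 had changes within its standard error in both mutants.

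The delayed rectifiers described here were not called in either mutant. The probes of Kcna5, which carries the rapidly activating component, differed in size of change. The brighter one gave -0.54 ± 0.32 in TrbE10 hearts (adjusted p = 0.428) with overlap, and the dimmer one gave -1.06 ± 0.27 (adjusted p = 0.0774) with all TrbE10 hearts (6.16 to 6.55) below all control hearts (6.99 to 8.19). In TrbE14 hearts the brighter probe gave -0.07 ± 0.32 (adjusted p = 0.935) with overlap. The dimmer probe gave -0.72 ± 0.27 there (adjusted p = 0.285), and TrbE14 replicate 1 (7.24) lay in the control range.

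Kcna1 had a log2 change of -0.29 ± 0.27 (adjusted p = 0.638) in TrbE10 hearts, and the changes of Kcna2 and Kcnc1 there were within their standard errors. Kcnh2 and Kcnq1 encode the pores of the rapid and slow delayed rectifiers that dominate in larger mammals. Kcnq1 read 10.62, 10.09, 10.85 and 10.91 in control hearts, 10.59 to 10.73 in TrbE10 and 10.61 to 10.88 in TrbE14 hearts, and the 95% interval of its log2 change was -0.33 to 0.37 and -0.23 to 0.46. Kcnh2 was within its standard error in TrbE10 hearts and had a log2 change of 0.20 ± 0.16 (adjusted p = 0.586) in TrbE14 hearts.

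**Figure D3:**
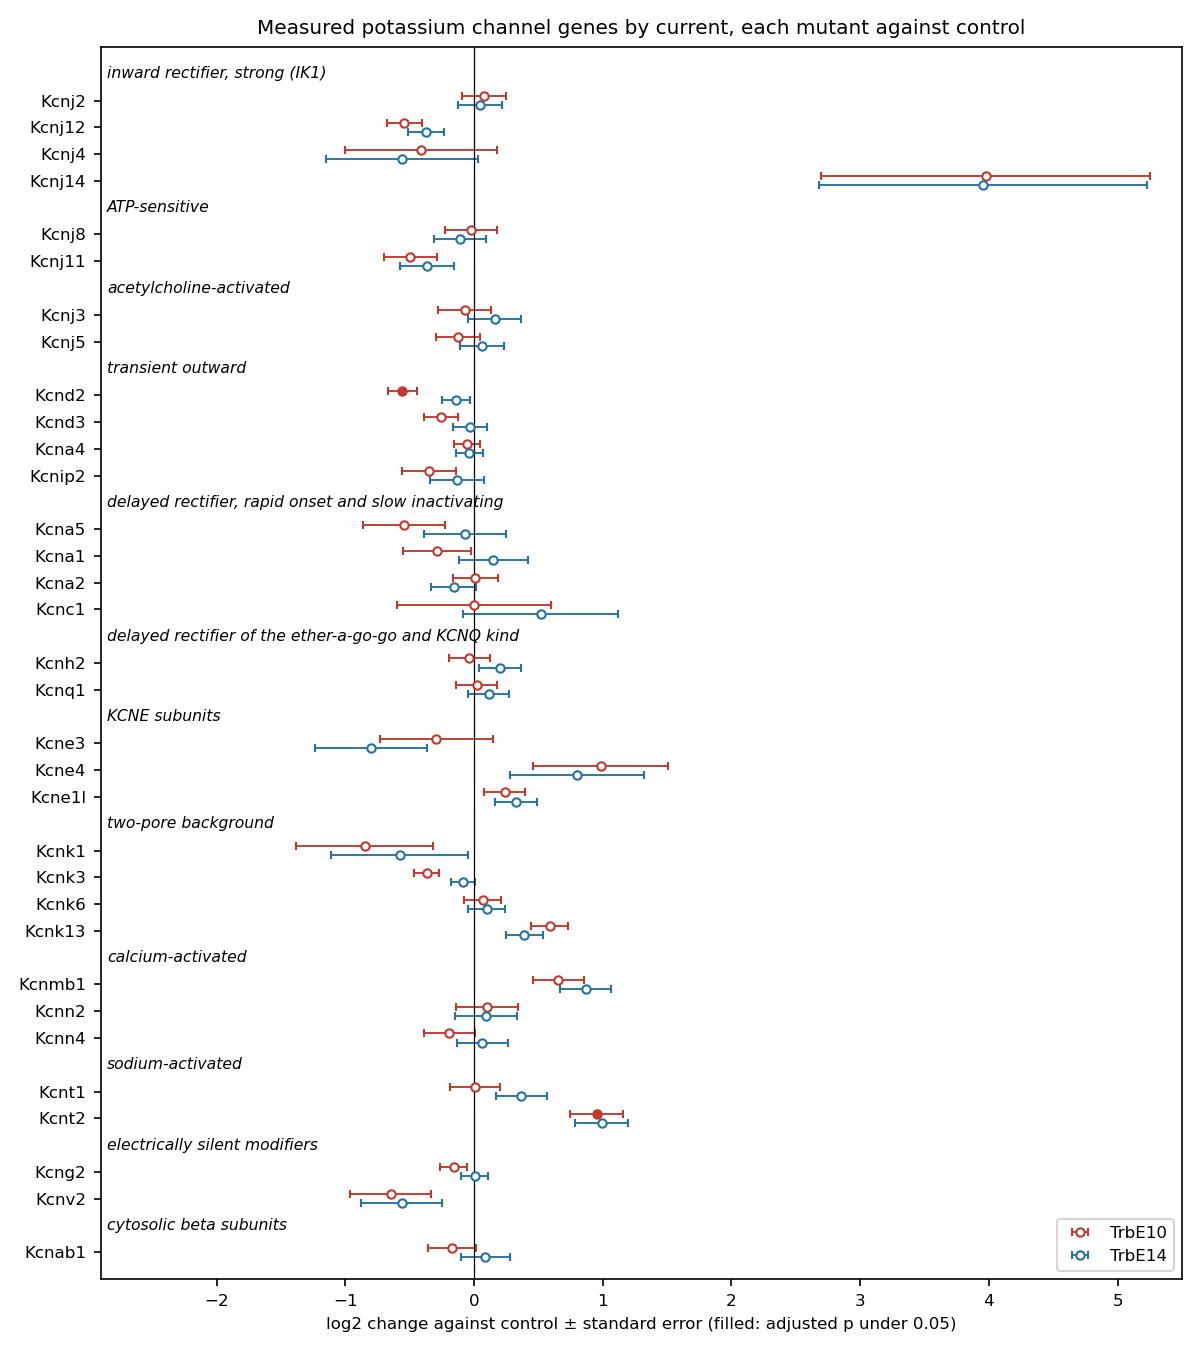
Log2 change against control with its standard error for 33 measured potassium channel genes of 12 current groups, TrbE10 in red and TrbE14 in blue, both against the same 4 control hearts; filled points have a limma adjusted p under 0.05. Kcnd2 and Kcnt2 in TrbE10 hearts are the only filled points, and the wide bars of Kcnj14 reflect its 2 levels within each mutant.

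Kcnt2, which encodes a sodium-activated channel, was called higher in TrbE10 hearts, a call that rests on a probe kept through the mutant hearts and not through control. Its log2 signal was 4.77, 5.40, 4.80 and 4.31 in control, 5.91, 5.94, 5.54 and 5.71 in TrbE10 and 5.67, 5.59, 6.16 and 5.83 in TrbE14 hearts. All 8 mutant hearts lay above all control hearts, and the probe was well above background in 2 of 4 control hearts and in every mutant heart. The log2 change was 0.95 ± 0.21 (adjusted p = 0.0473) for TrbE10 and 0.99 ± 0.21 (adjusted p = 0.0660) for TrbE14 hearts, and the 95% interval of the direct difference was -0.50 to 0.42. The call in TrbE10 hearts held in 3 of 21 alternative settings, those being the filter on 9 of 12 arrays and the fits without control replicate 2 or TrbE14 replicate 3. With normexp background correction the change was 0.29 in TrbE10 and 0.41 in TrbE14 hearts, and only the second was called (adjusted p = 0.118 and 0.0485). The related Kcnt1 had a change within its standard error in TrbE10 hearts and of 0.37 ± 0.20 (adjusted p = 0.429) in TrbE14 hearts.

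Kcnmb1, the beta subunit of the large calcium-activated channel of smooth muscle, had a log2 signal of 4.49, 4.82, 4.76 and 5.19 in control, 5.44, 5.81, 5.69 and 4.93 in TrbE10 and 5.41, 5.78, 5.81 and 5.72 in TrbE14 hearts. All TrbE14 hearts lay above all control hearts, and TrbE10 replicate 4 lay among the controls. The probe was well above background in 2 of 4 control hearts and in every mutant heart. It was kept through the mutant hearts and not through control, so this separation was partly fixed by the filter. The log2 change of Kcnmb1 was 0.87 ± 0.20 in TrbE14 hearts (adjusted p = 0.0897) and 0.65 ± 0.20 in TrbE10 hearts (adjusted p = 0.133). Across the 21 alternative settings the change in TrbE14 hearts ran from 0.23 to 0.99. The pore-forming partner Kcnma1 was not measured, with 1 of 12 arrays well above background by the best of its 3 probes. Kcnn2 and Kcnn4, of the small and intermediate calcium-activated channels, had changes within their standard errors in both mutants.

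Markers of cells other than cardiomyocytes also differed between the groups. All 8 smooth muscle and pericyte markers were measured, with a summed log2 signal of 14.66 to 15.32 in control, 14.98 to 15.79 in TrbE10 and 15.15 to 15.91 in TrbE14 hearts, and 1 of them, Pdgfrb, was called higher, in TrbE10 hearts. All 8 fibroblast markers were measured, with a sum of 16.12 to 16.28 in control, 16.46 to 16.71 in TrbE10 and 16.52 to 16.77 in TrbE14 hearts, without overlap, and Dcn was called higher in both mutants. The 7 endothelial markers summed to 13.42 to 13.76 in control and to 13.99 to 14.33 over both mutants. The 9 macrophage markers summed to 13.44 to 13.72 in control, 14.24 to 14.56 in TrbE10 and 14.10 to 14.21 in TrbE14 hearts. A further name in the macrophage list, Adgre1, is the newer one of Emr1, which is among the 9. Vwf was called higher in both mutants, as were 4 macrophage markers in TrbE10 and 1 in TrbE14 hearts. Of the 22 measured markers of T and B cells, neurons and glia, skeletal muscle, adipocytes and the conduction system limma called 0 in either mutant, with 3 (TrbE10) and 2 (TrbE14) at an unadjusted p under 0.05. The part of these cells in the values of Kcnt2, Kcnk13 and Kcnmb1, of which Kcnk13 and Kcnmb1 were called in neither mutant, was not tested.

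Of the accessory and silent subunits, few were above background. Kcne1, the partner of Kcnq1, and Kcne2 were well above background on 0 of 12 arrays. Kcne4 had changes of 0.98 ± 0.52 and 0.80 ± 0.52 and Kcne1l of 0.24 ± 0.16 and 0.33 ± 0.16, none called (adjusted p from 0.380 to 0.512). Kcne3 had a log2 change of -0.80 ± 0.44 (adjusted p = 0.442) in TrbE14 hearts and one within its standard error in TrbE10 hearts by its brighter probe, while a dimmer one gave -0.62 ± 0.24 (adjusted p = 0.242) for TrbE10 and -0.66 ± 0.24 (adjusted p = 0.283) for TrbE14 hearts. Of the 10 electrically silent subunits, which act only inside channels formed by others, 2 were measured. The brighter Kcng2 probe gave -0.16 ± 0.10 (adjusted p = 0.490) in TrbE10 and 0.01 ± 0.10 (adjusted p = 0.983) in TrbE14 hearts, with overlap in both. A dimmer one gave -0.36 ± 0.08 (adjusted p = 0.0551) in TrbE10 and -0.15 ± 0.08 (adjusted p = 0.434) in TrbE14 hearts. By the dimmer probe all TrbE10 hearts (8.32 to 8.62) and all TrbE14 hearts (8.64 to 8.76) lay below all control hearts (8.78 to 8.91). Kcnv2 had changes of -0.65 ± 0.31 (adjusted p = 0.336) and -0.56 ± 0.31 (adjusted p = 0.450). The cytosolic beta subunit Kcnab1 had changes within its standard error.

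Of the 53 gene names in the 12 current groups, 52 were on the array and 34 were measured. Those on the array and not measured were Kcne1, Kcne2, Kcnk2, Kcnk5, Kcnma1, Kcnmb4, Kcnn1, Kcnn3, Kcnf1, Kcng1, Kcng3, Kcng4, Kcns1, Kcns2, Kcns3, Kcnv1, Kcnab2 and Kcnab3, and the name not on it, Kcne5, is the newer one of Kcne1l, which was measured. Of all 46 members not measured, 35 had no array well above background by any probe and 11 had between 1 and 5 arrays at most. Of the 49 measured, 38 passed the filter in all 3 groups, 4 passed through both mutants and not control (Kcne4, Kcnj14, Kcnmb1 and Kcnt2), and 3 through control alone (Kcnj15, Kcnk1 and Kcnk16). The same limit holds for the counts that follow, which describe the 49 and support nothing about them.

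In TrbE10 hearts 34 of the 49 changes were negative, or 69.4%, against 54.8% of all measured genes, with a median log2 change of -0.12 against -0.02. In TrbE14 hearts 25 of 49 were negative, or 51.0%, against 55.9% of all genes, with medians of -0.03 and -0.03. Directly, 34 of 49 were lower in TrbE10 than in TrbE14 hearts, or 69.4%, against 48.8% of all genes, with a median difference of -0.13 against 0.00. Across the 21 alternative settings the share of measured members that were negative in TrbE10 hearts ran from 63.3% to 77.6%, against 53.5% to 63.6% of all genes. In TrbE14 hearts the share ran from 49.0% to 65.3%, against 54.1% to 61.1%, and was 65.3% (32 of 49) against 55.1% with Y-linked signal as a covariate, above and not below the share of all genes. Of the changes in TrbE10 hearts, 22 of 49 were within their own standard error, and of the other 27, 20 were negative and 7 positive. In TrbE14 hearts 27 were within their standard error, with 13 of the other 22 negative and 9 positive.

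Members without overlap against control numbered 8 of 49 in TrbE10 hearts, or 16.3% against 10.6% of all genes. There 6 lay below (12.2% against 5.63%), among them Kcnd2, Kcnj12, Kcnk16 and Kcnk3, and Kcnk13 and Kcnt2 above (4.08% against 4.94%). In TrbE14 hearts there were 5, or 10.2% against 10.1%, with Kcnd1 and Kcnj12 below (4.08% against 5.43%) and Kcnk13, Kcnmb1 and Kcnt2 above (6.12% against 4.65%). Between the mutants Kcnd2 and Kcnk3 did not overlap, both lower in TrbE10 hearts, or 4.08% of members against 3.37% of all genes. At an unadjusted p under 0.05, 11 members differed in TrbE10 hearts, or 22.4% against 16.8% of all genes, 6 of them lower (12.2% against 9%) and 5 higher (10.2% against 7.8%). Outside the genes already described, these took in Kcnip3, with 0.56 ± 0.23 in each mutant (adjusted p = 0.258 and 0.326), and Kcnj15, with -1.07 ± 0.47 in TrbE10 hearts (adjusted p = 0.290).

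**Figure D4:**
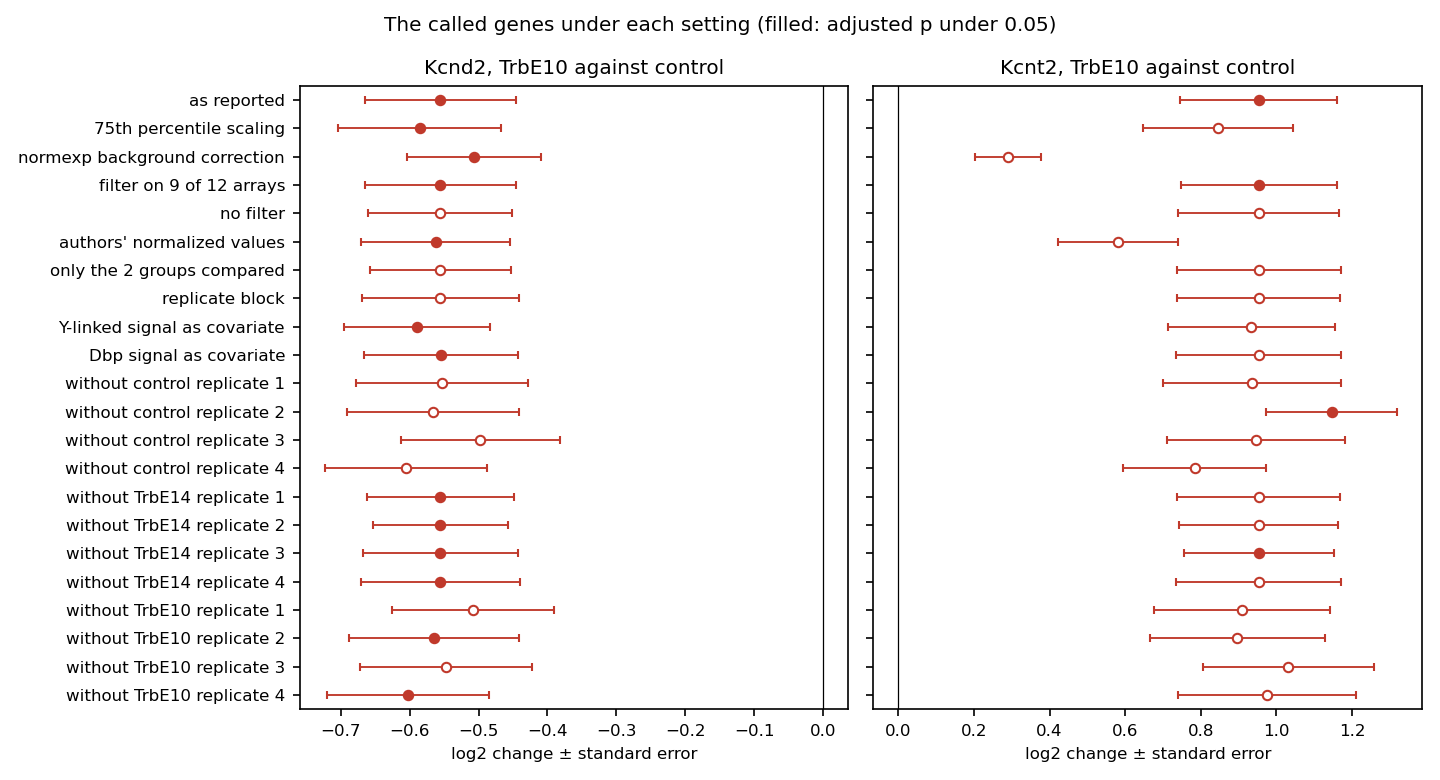
Log2 change of Kcnd2 and Kcnt2 in TrbE10 hearts against control under the reported setting and 21 alternatives, with standard errors; filled points have a limma adjusted p under 0.05. The change of Kcnd2 stays between -0.61 and -0.50 while its call comes and goes, and that of Kcnt2 drops to 0.29 with normexp background correction.

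Beyond the Kcn genes, 24 further subunits, partners and regulators of potassium currents were looked up, of which 19 were measured. Abcc8 was the 1 gene of these called, lower in TrbE10 hearts, and 0 were called by limma in TrbE14 hearts. Of all genes 2.15% and 0.76% were called. At an unadjusted p under 0.05 there were 4 of the 19 in TrbE10 and 2 in TrbE14 hearts, against 16.8% and 13.9% of all genes. The median log2 change of the 19 was -0.06 in TrbE10 and 0.06 in TrbE14 hearts, beside -0.02 and -0.03 over all genes. Their changes ran from -1.74 to 0.56 in TrbE10 hearts, with 13 negative, and from -2.10 to 0.82 in TrbE14 hearts, with 9 negative. Irx5, a repressor of Kcnd2 in mouse ventricle, had changes of 0.56 ± 0.29 (adjusted p = 0.363) and 0.08 ± 0.29 (adjusted p = 0.919). Klf15, an activator of Kcnip2, had changes of -0.28 ± 0.37 (adjusted p = 0.752) and -0.03 ± 0.37 (adjusted p = 0.979). The part of Irx5 and Klf15 in the values of Kcnd2 and Kcnip2 was not tested. Of 8 genes for the sodium-potassium pump and its regulators 7 were measured, with a median of 0.09 and 0.06, and limma called 0 in either mutant. Of these 7, 2 (TrbE10) and 3 (TrbE14) had an unadjusted p under 0.05, beside 16.8% and 13.9% of all genes. Promoters of 35 of the 49 measured members were found in the RefSeq table for GRCm38.p6. A TNAAGTG motif, the sequence that Nkx2-5 binds, was present on either strand within 250 bases before a start in 4 of their 40 promoters, or 10.0%, against 10.1% of all 32851 promoters. The 4 were those of Kcnd3, Kcnh4, Kcnj8 and Kcnrg, and Kcnd2 and Kcnt2 were not among them. Members without a promoter there could not be searched.

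Several potassium channel genes follow the daily clock in mouse ventricle, and the clock output gene Dbp varied within every group, from 11.21 to 14.505 in control, 11.81 to 14.22 in TrbE10 and 11.98 to 14.35 in TrbE14 hearts. With the Dbp signal as a covariate the change of Kcnd2 in TrbE10 hearts was -0.55 (adjusted p = 0.0364), and that of Kcnt2 was 0.95 (adjusted p = 0.0568).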

How the data were processed

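Total RNA of 12 left ventricles was hybridised to one-colour Agilent mouse arrays with probe positions on mm9, and the deposited scanner files give processed signal intensity per spot, background-subtracted by the authors' Feature Extraction 10.5 per the labels. The authors also deposited a table of log2 values, quantile normalized and filtered on background, which was used as an alternative. Here control and outlier spots were left out, log2 intensities were quantile normalized and spots of a probe averaged. Probes well above background on at least 3 of 4 arrays of any group were kept (24593 probes).

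Limma 3.58.1 in R 4.3.3 fitted 1 mean per group over all 12 arrays, and p-values of each comparison were Benjamini-Hochberg adjusted over all 24593 probes. A gene was called when any of its kept probes had an adjusted p under 0.05, and its values are those of its brightest kept probe. Tests are two-sided, with precision limited by the number of arrays. Only the spread between these 12 hearts enters the p-values. The fit was tested on simulated data.

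The potassium channel genes, current groups and other lists were chosen with earlier results of these data known. Genes were named by 1 rule: called genes, the 6 largest changes without overlap per comparison and all measured members of the current groups. Genes outside it (Kcnip3, Kcnj15, Grwd1, Cyth2) were chosen after their values were seen. Genes named from the other lists, such as Abcc8, Abcc9, Irx5 and Klf15, were not picked by this rule either. The alternatives tried were other filters, 75th percentile scaling, normexp correction of the background (offset 50), the authors' normalized values, fits on only the groups compared, a replicate block, Y-linked or Dbp signal as covariate and leaving out each array. Some members are counted but not reported here by name.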

Additional observations from a re-analysis of the deposited data

Results flagged for a closer look

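Of the 111 groups of 4 hearts looked at for the 37 measured genes named, 6 held a heart far from the other 3 by Dixon's 95% limit, which chance alone gives in about 1 in 20 groups. For Kcnj14 these were TrbE10 replicate 1 at a log2 signal of 4.48 (others 9.32 to 9.36) and TrbE14 replicate 2 at 4.57 (others 9.004 to 9.49). For Kcng2 it was TrbE14 replicate 3 at 11.62 (others 11.25 to 11.28), and for Kcnj2 TrbE14 replicate 4 at 6.01 (others 5.74 to 5.76). For Kcnn2 it was control replicate 2 at 8.45 (others 9.06 to 9.15), and for Kcnt1 TrbE10 replicate 4 at 5.25 (others 4.75 to 4.81).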

How the results depend on the processing

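The count of potassium channel genes called in TrbE10 hearts was 2 as reported, 0 without the background filter, 1 (Kcnj14 alone) in a fit on only the 2 groups compared, and 0 with a replicate block. It ranged from 0 to 2 when 1 array was left out, with 0 without control replicate 1, 3 or 4 or TrbE10 replicate 3. In TrbE14 hearts it was 0 as reported, 1 (Kcnt2) with normexp correction and 0 to 1 when 1 array was left out. There the 1 gene was Kcnt2 without control replicate 2, Kcnj14 without TrbE14 replicate 2 and Kcnmb1 without TrbE10 replicate 4. Limma called 0 between the mutants under every alternative run. The cause of these shifts was not tested. The labels do not say that a replicate number pairs hearts. Correlations between same-numbered arrays ran from -0.24 to 0.08 between control and either mutant and were 0.37, 0.31, -0.01 and 0.48 between the mutants, and 6 of 12 arrays matched their own number best, so a pairing of control with mutant hearts was not borne out and one between the mutants was left unused.

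Calls gained in TrbE10 hearts were Kcnk3 with 75th percentile scaling (-0.46, adjusted p = 0.0493), Kcnk13 with the authors' normalized values (0.63, adjusted p = 0.0362) and, with Y-linked signal as a covariate, Kcnk13 (0.63, adjusted p = 0.0484) and Kcnj12 (-0.59, adjusted p = 0.0487). Signs turned only for changes that were not called. With normexp correction these were Kcnj2 in TrbE14 hearts (-0.0763), Kcnq1 in TrbE10 hearts (-0.0093), Kcnt1 in TrbE14 hearts (-0.0005) and the direct difference of Kcnmb1 (0.0184). Kcnq1 in TrbE10 hearts was -0.0342 with 75th percentile scaling, and Kcnj2 in TrbE14 hearts was -0.0266 with the Y-linked covariate. Leaving out 1 array gave Kcnj2 changes of -0.0878 to 0.17 (TrbE10) and -0.1161 to 0.1394 (TrbE14), and Kcnq1 changes of -0.1553 to 0.1185 and -0.0624 to 0.2113. A slide block could not be fitted because the TrbE10 arrays had a slide of their own. Probes near background, such as those of Kcnt2, Kcnj14 and Kcnmb1, have changes that depend on the background correction. The sign of changes within their standard error was not followed across settings, Kcnj2 and Kcnq1 excepted.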
